A study of Mus musculus with 15 samples.

Results

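The genes described here are 35 named genes of mitochondrial fatty acid oxidation and of ketone and acetate use, taken from 55421 genes counted in mouse posterior eyecups. They were listed by name, as a pathway, with no measured value in the rule, but the list was drawn up when earlier results of these data were known. The eyecup is the back of the eye after the neural retina is removed, with the retinal pigment epithelium (RPE), choroid and sclera. Counts came from 4 WT mice, 6 FUN025/+ mice with 1 mutant and 1 normal allele of Tmem135, and 5 FUN025/FUN025 mice with both alleles mutant, all 2.5 months old and on the C57BL/6J background, with 1 library per mouse. Eyecups were pooled within each mouse, and both sexes were used. As described for the study, males and females were equal in number in WT and unequal in both mutant genotypes, with more males in FUN025/+ and more females in FUN025/FUN025. The labels do not tie sex to a library, so sex was not in the fits and its part in the results was not tested. The mutation is present in every cell of the body, so the design compares whole animals and not cells of a single type. It addresses how many mutant copies of Tmem135, which codes for a membrane protein linked to mitochondria and peroxisomes, go with which levels of the oxidation genes.

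Long-chain fatty acids enter mitochondria as carnitine esters and are then shortened in turns of the beta-oxidation spiral, in which an acyl-CoA dehydrogenase, a hydratase, a second dehydrogenase and a thiolase act in order. The electrons of the first step pass through the electron transfer flavoprotein to the respiratory chain. The RPE takes up fatty acids from the photoreceptor tips it engulfs each day, oxidises them and makes ketone bodies that photoreceptors can use. Many genes of the pathway are targets of the PPAR nuclear receptors, among them Pdk4, Angptl4, Ucp3 and Cpt1a.

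Most of the 35 genes differed little between genotypes. Cpt1b was too low to test, and of the 34 tested genes 27 were called in no comparison between genotypes with edgeR's quasi-likelihood test at an adjusted p of 0.05. The 7 called genes were Pdk4, Etfb, Ucp3, Crat, Acadvl, Acad9 and Acad10, and 5 of them were called against WT in both mutant genotypes. Pdk4, Etfb and Ucp3 fell by 0.57 to 0.96 on the log2 scale, and the other called changes were between -0.32 and 0.24.

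In FUN025/+ mice 5 of the 34 genes fell against WT, where 6.61% of all 18979 tested genes fell, and 1 rose, where 7.09% of all genes rose. In FUN025/FUN025 mice 4 fell, against 7.02% of all genes, and 2 rose, against 7.03%. The median log2 fold change of the 34 genes was -0.03 in FUN025/+ and -0.01 in FUN025/FUN025 mice, beside -0.002 and -0.007 over all tested genes. For 30 of the 34 genes the 95% interval of the log2 fold change, taken gene by gene, lay within 0.5 of zero in each of these comparisons. The exceptions in both were Etfb, Pdk4, Angptl4 and Ucp3. The FUN025/+ and FUN025/FUN025 comparisons share the 4 WT mice, so their values are given side by side and not as separate support.

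**Figure D1:**
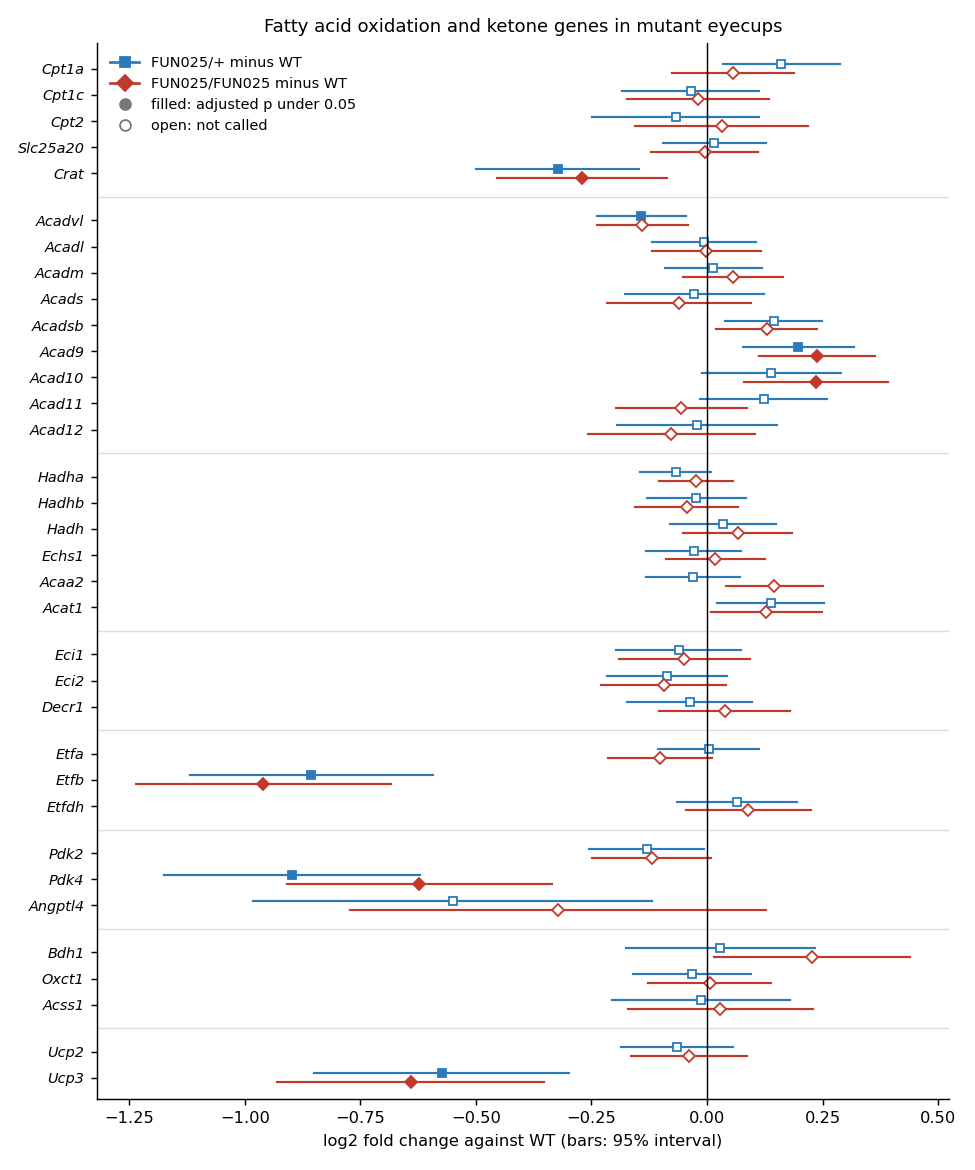
Log2 fold change against WT (horizontal axis) of the 34 tested genes, grouped by role, for FUN025/+ (blue squares) and FUN025/FUN025 (red diamonds) mice. Bars are 95% intervals from the edgeR fit and filled symbols mark an adjusted p under 0.05; Pdk4, Etfb, Angptl4 and Ucp3 are the genes whose intervals reach beyond 0.5.

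Between FUN025/FUN025 and FUN025/+ mice the edgeR test called 0 of the 34 genes, where 0.327% of all genes were higher and 0.195% lower. At an unadjusted p under 0.05 it counted 5 of them, beside 1183 of the 18979 tested genes, limma-voom called 0 and the DESeq2 Wald test called 1, Acaa2. Log2 fold changes between the mutant genotypes lay within 0.5 of zero, interval included, for 32 of the 34 genes, and the exceptions were Pdk4 and Angptl4. With 1 more mutant allele as a linear term, limma called 1 gene at an FDR of 0.01, Etfb, which fell by 0.45 per allele (SE 0.08, adjusted p = 0.00439). The call was lost without any single WT mouse (adjusted p = 0.0112, 0.0151, 0.0209 and 0.0147 without replicates 1 to 4) and when the mouse number was added as a replicate block (adjusted p = 0.0148). Over all genes 0.827% fell in that fit. The values of Etfb in the 2 mutant genotypes overlapped, so the step lay between WT and the mutants.

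Every WT library was deeper than every mutant library, with totals of 18094977 to 20029919 counts in WT and 10903183 to 15038383 in the mutants. At this depth 3 counts correspond to 0.15 to 0.275 CPM, the library-scaled count used below. The defining RPE genes were present in every library, with summed levels of 10 RPE markers of 17479 to 21276.5 CPM in WT, 17453 to 23021 CPM in FUN025/+ and 17162 to 21862 CPM in FUN025/FUN025 mice. Log2 fold changes against WT were negative for 2 of the 10 in FUN025/+ and 6 in FUN025/FUN025 mice, where 1 marker was called, higher. Between the mutant genotypes 8 were lower in FUN025/FUN025 mice (median -0.17), 6 at an unadjusted p under 0.05 and 0 called. The tissue also held striated muscle. The summed level of 20 muscle markers was 11152, 7250, 8352 and 13192 CPM in the WT mice, 3894 to 9838 CPM (median 5303) in FUN025/+ and 5840 to 7157 CPM (median 6675) in FUN025/FUN025 mice, and 5 of the 20 markers fell in each mutant genotype. All 20 had negative log2 fold changes in both (median -0.63 and -0.57), 11 and 10 of them at an unadjusted p under 0.05. Rod photoreceptor RNA was lower on average in the mutants, with 12 markers summing to 364 to 2592 CPM in WT, 190 to 803 CPM in FUN025/+ and 189 to 526 CPM in FUN025/FUN025 mice, and WT replicate 2 holding the 2592 CPM. All 12 rod markers had negative log2 fold changes in both mutant genotypes (median -1.80 and -1.89), 11 of them at an unadjusted p under 0.05 in each, with 0 and 1 called by edgeR after adjustment. Endothelial markers summed to 1330 to 1564 CPM in WT, 1065 to 1463 CPM in FUN025/+ and 981 to 1206 CPM in FUN025/FUN025 mice, and 3 of the 10 fell in FUN025/+ and 7 in FUN025/FUN025 mice, with negative log2 fold changes for 9 and 10 of them. Smooth muscle markers summed to 1275 to 1614 CPM in WT, 1038 to 1791 CPM in FUN025/+ and 1341 to 2212.5 CPM in FUN025/FUN025 mice, and of the 8 markers 1 fell in FUN025/+, where all 8 had negative log2 fold changes, and 0 were called in FUN025/FUN025 mice, where 3 had negative ones and 2 had an unadjusted p under 0.05. Macrophage markers summed to 539 to 688 CPM in WT, 519 to 765 CPM in FUN025/+ and 607 to 685 CPM in FUN025/FUN025 mice. Of these 10 markers 4 had positive log2 fold changes in FUN025/+ and 9 in FUN025/FUN025 mice, with 0 and 1 called. In bulk tissue, fewer cells of a type and less RNA per cell cannot be told apart. Tmem135 itself, whose transcript is altered and not removed by the mutation, was at 64.0 ± 2.99 CPM (SD, n = 4) in WT, 75.0 ± 7.30 CPM (n = 6) in FUN025/+ and 88.3 ± 4.57 CPM (n = 5) in FUN025/FUN025 mice.

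Levels between genes were compared in TPM, which divides each count by exonic length. In WT mice the 35 genes ran from 256 ± 17.1 TPM for Acaa2, the thiolase of the last step of the spiral, down to 0.60 ± 0.14 TPM for Cpt1b (both SD, n = 4). The next highest levels were those of Oxct1 at 250 ± 14.1 TPM, the enzyme that activates ketone bodies for use, Ucp2 at 246 ± 18.5 TPM, an uncoupling protein, and Acadl at 232 ± 11.4 TPM, the long-chain acyl-CoA dehydrogenase. Of the 34 neighbouring pairs in this order 7 did not overlap between WT mice, for example Acadl above Acadvl and Pdk2 above Etfa. Every other gene overlapped with its neighbour between WT mice, as Acaa2, Oxct1, Ucp2 and Acadl did, for example. These ranges set different mice side by side, and the order within each mouse was not tested.

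**Figure D2:**
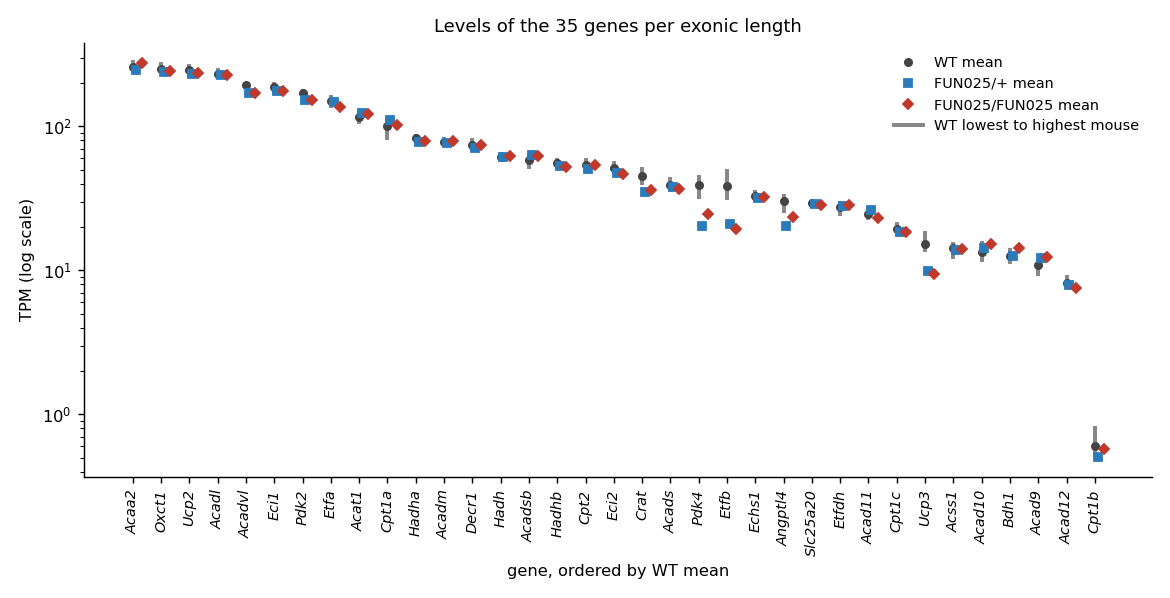
Mean level of each of the 35 genes in TPM (vertical axis, log scale) in WT (grey circles), FUN025/+ (blue squares) and FUN025/FUN025 (red diamonds) mice, ordered by WT mean, with grey bars from the lowest to the highest WT mouse. On the log scale the mutant means of Pdk4, Etfb and Ucp3 lie furthest below the lowest WT mouse. Unlike the CPM values, TPM values are not TMM-scaled.

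The largest called changes were in 3 genes, and the bases before their RefSeq transcription starts (build GRCm38.p6, as far as the GENCODE start where it lies upstream) are shown because these genes fell together. RefSeq promoter windows of 250 bases before and 50 after the start were found for 28 of the 35 genes, and not for Cpt1b, Crat, Acad9, Acaa2, Acat1, Decr1 and Angptl4. The stretches are chr6:5496310-5496528 on the minus strand, chr7:100472741-100472989 on the plus strand and chr7:43443822-43444071 on the plus strand, each written 5′ to 3′ on the strand of its gene, with capitals for AGGTCA and CCAAT on either strand.
Pdk4: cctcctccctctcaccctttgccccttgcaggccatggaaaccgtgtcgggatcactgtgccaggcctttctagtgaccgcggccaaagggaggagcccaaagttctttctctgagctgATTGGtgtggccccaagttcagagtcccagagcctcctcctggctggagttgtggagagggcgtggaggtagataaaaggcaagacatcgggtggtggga
Ucp3: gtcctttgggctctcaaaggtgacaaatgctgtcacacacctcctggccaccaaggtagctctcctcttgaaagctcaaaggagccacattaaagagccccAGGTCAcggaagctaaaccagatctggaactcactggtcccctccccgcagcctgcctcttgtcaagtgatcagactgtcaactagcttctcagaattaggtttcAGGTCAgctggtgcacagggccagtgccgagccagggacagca
Etfb: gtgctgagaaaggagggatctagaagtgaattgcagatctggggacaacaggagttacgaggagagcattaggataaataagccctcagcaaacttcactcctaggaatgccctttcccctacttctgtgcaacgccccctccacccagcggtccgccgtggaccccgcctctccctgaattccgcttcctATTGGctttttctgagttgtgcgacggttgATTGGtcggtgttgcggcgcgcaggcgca
The capitals in the Ucp3 stretch are a pair of AGGTCA sequences, the half-site that PPAR and other nuclear receptors bind, beginning 149 and 44 bases before the start. Those in Pdk4 and Etfb are CCAAT boxes on the opposite strand, 131 bases before the start in Pdk4 and 59 and 29 bases before it in Etfb. AGGTCA occurred in the windows of 6 of the 28 genes (Acadm, Cpt1c, Ucp3, Echs1, Acadvl and Cpt1a), and in 16.3% of all 32851 windows. CCAAT occurred in 10 of the 28 genes and in 37.4% of all windows. The GC box GGGCGG, which was also searched on both strands and is not marked, occurred in 19 of the 28 genes, Etfb among them and Pdk4 and Ucp3 not, and in 35.7% of all windows. A direct repeat of the half-site with 1 base between the copies, the classic PPAR element, was in no window of these genes and in 0.0396% of all windows. No searched motif was in the windows of all 3 genes.

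Pdk4 codes for the pyruvate dehydrogenase kinase that shuts off entry of pyruvate into the tricarboxylic acid cycle when fat is burned. It lies at chr6:5483351-5496309 (GRCm38, minus strand, ENSMUSG00000019577). Its level was 40.6, 47.6, 46.2 and 37.1 CPM in the WT mice, 17.3 to 30.6 CPM (median 22.5) in FUN025/+ and 30.5, 26.0, 27.9, 26.1 and 28.6 CPM in FUN025/FUN025 mice. Every mutant mouse lay below every WT mouse. The means were 42.9 ± 4.86 CPM (SD, n = 4), 23.0 ± 5.23 CPM (n = 6) and 27.8 ± 1.89 CPM (n = 5). It fell by 0.90 on the log2 scale (SE 0.13, adjusted p = 3.24e-04) in FUN025/+ and by 0.62 (SE 0.14, adjusted p = 0.00664) in FUN025/FUN025 mice. The value was 0.28 higher with 2 mutant alleles than with 1 on the log2 scale (95% interval 0.01 to 0.55, adjusted p = 0.78), so a difference between the mutant genotypes was not called. Pdk2, the kinase of the same family that most tissues express, was at 156 and 155 CPM on average in the mutant genotypes and 170 CPM in WT, log2 fold changes of -0.12 and -0.13 that were not called.

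Angptl4, a secreted inhibitor of lipoprotein lipase and a strong PPAR target, was at 28.4, 35.6, 35.3 and 35.2 CPM in WT, 14.6 to 32.5 CPM (median 22.4) in FUN025/+ and 26.8, 21.9, 25.3, 30.0 and 30.7 CPM in FUN025/FUN025 mice. The groups overlapped at WT replicate 1, the lowest WT mouse. Its log2 fold change was -0.55 (95% interval -0.98 to -0.12, adjusted p = 0.0859) in FUN025/+ and -0.32 (95% interval -0.77 to 0.13, adjusted p = 0.338) in FUN025/FUN025 mice. Angptl4 was not called in the edgeR fit with all mice. In FUN025/+ it was called by limma-voom, by the DESeq2 Wald test and by edgeR without FUN025/+ replicate 3. Cpt1a, another PPAR target, is described with the carnitine genes and was not called in either mutant genotype.

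Etfb codes for the beta subunit of the electron transfer flavoprotein, which works as a heterodimer with the alpha subunit from Etfa. The gene lies at chr7:43444083-43457800 (GRCm38, plus strand, ENSMUSG00000004610). Its level was 11.5, 12.7, 13.8 and 18.6 CPM in WT, 6.78 to 8.69 CPM (median 7.97) in FUN025/+ and 6.70, 7.24, 6.67, 8.63 and 7.17 CPM in FUN025/FUN025 mice. No mutant mouse reached the lowest WT mouse. Etfb fell by 0.86 on the log2 scale (SE 0.13, adjusted p = 2.00e-04) in FUN025/+ and by 0.96 (SE 0.13, adjusted p = 8.91e-05) in FUN025/FUN025 mice.

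The Etfb counts rest on part of the gene. GENCODE places other transcripts on the same strand, mainly Gm45233, over 58.2% of its exonic bases, which leaves 486 of 1164 bases to Etfb alone, and reads that fit both genes may have been left uncounted. Gm45233 itself held 0 to 5 counts per library, 0 to 0.412 CPM. The level of Etfb, 38.5 ± 7.22 TPM (SD, n = 4) in WT beside 150 ± 8.76 TPM for Etfa, is therefore not a measure of the balance of the subunits. Etfa was at 90.5, 77.8, 88.7 and 89.6 CPM in WT, 81.0 to 89.9 CPM in FUN025/+ and 78.95, 79.1, 77.9, 79.0 and 88.9 CPM in FUN025/FUN025 mice. All FUN025/FUN025 mice but replicate 5 lay at the lower end of the WT range, with WT replicate 2. Etfa was not called, with a log2 fold change of 0.004 in FUN025/+ and -0.10 in FUN025/FUN025 mice. Etfdh, the dehydrogenase that hands the electrons to ubiquinone, was at 68.6, 65.5, 65.0 and 61.0 CPM in WT, 62.4 to 80.6 CPM (median 66.5) in FUN025/+ and 63.9, 69.7, 72.6, 69.95 and 69.96 CPM in FUN025/FUN025 mice. The groups overlapped throughout, and the 95% intervals of its log2 fold change were -0.07 to 0.19 and -0.05 to 0.22.

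Ucp3, a mitochondrial carrier of the uncoupling family that is most abundant in skeletal muscle and brown fat, lies at chr7:100472990-100486432 (GRCm38, plus strand, ENSMUSG00000032942), next to Ucp2. It was at 13.9, 17.3, 14.04 and 14.3 CPM in WT, 7.04 to 13.4 CPM (median 9.61) in FUN025/+ and 8.87, 8.78, 9.08, 10.8 and 10.2 CPM in FUN025/FUN025 mice. All mutant mice were below all WT mice, by a narrow gap in FUN025/+ replicate 2, the highest of them. The fall was 0.57 on the log2 scale (SE 0.13, adjusted p = 0.00747) in FUN025/+ and 0.64 (SE 0.14, adjusted p = 0.00469) in FUN025/FUN025 mice. The neighbouring Ucp2, which is broadly expressed, was at 508, 562, 572 and 522 CPM in WT, 468 to 552 CPM (median 527) in FUN025/+ and 499, 513, 568, 555 and 498 CPM in FUN025/FUN025 mice. Its groups overlapped, with 95% intervals of the log2 fold change of -0.19 to 0.06 and -0.16 to 0.09.

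Tmem135 is on chromosome 7 too, and 6 of the 35 genes share that chromosome. Etfb and Ucp3 fell, Ucp2, Cpt1c, Acadsb and Echs1 were not called. Ucp3 lies 11.1 Mb and Etfb 45.7 Mb from Tmem135. Whether linked sequence around the mutation bears on either gene was not tested.

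**Figure D3:**
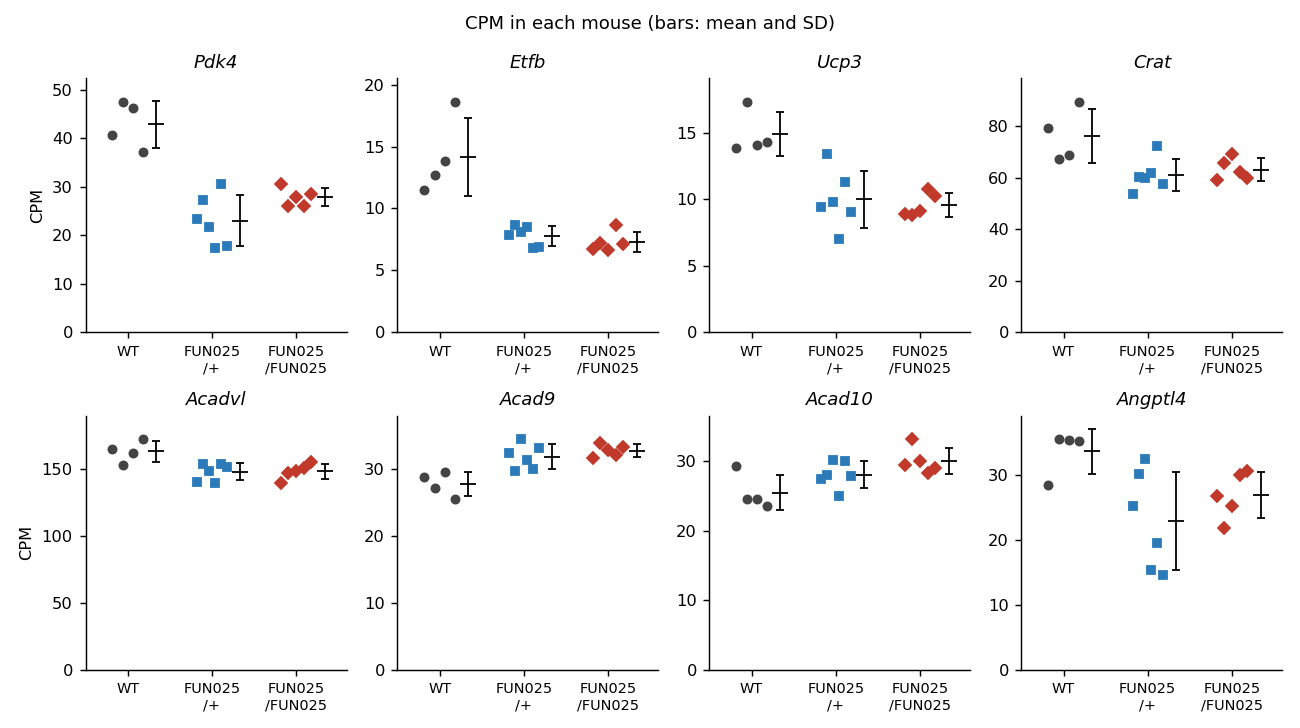
CPM in each mouse (vertical axes from 0) of the 7 called genes and of Angptl4 for WT (circles), FUN025/+ (squares) and FUN025/FUN025 (diamonds) mice, with bars for the mean and SD. For Pdk4, Etfb and Ucp3 the mutant mice lie below all WT mice, for Acad9 they lie above, and in Crat, Acadvl, Acad10 and Angptl4 the groups overlap.

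Of all tested genes, 10.9% did not overlap between FUN025/+ and WT mice and 14.8% did not overlap between FUN025/FUN025 and WT mice. Among the 34 genes there were 4 in each comparison, Acad9, Etfb, Pdk4 and Ucp3. Between the mutant genotypes 1 gene did not overlap, Acaa2, where 1.12% of all genes did not.

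Of the 5 tested genes of the carnitine shuttle, which brings long chains across the inner membrane, Crat was called and the others were not. Cpt1a makes the carnitine ester in liver and many other tissues and is the gate that malonyl-CoA controls. It was at 256, 245, 262 and 207 CPM in WT, 249 to 286 CPM (median 273) in FUN025/+ and 244, 269, 254, 246 and 247 CPM in FUN025/FUN025 mice. The groups overlapped, and the log2 fold changes were 0.16 (95% interval 0.03 to 0.29, adjusted p = 0.0848) and 0.06 (95% interval -0.08 to 0.19, adjusted p = 0.6). Cpt2, which turns the ester back into acyl-CoA inside, was at 43.5, 35.9, 37.9 and 45.5 CPM in WT, 32.7 to 43.2 CPM (median 39.4) in FUN025/+ and 36.3, 42.5, 45.7, 39.2 and 44.5 CPM in FUN025/FUN025 mice. Its spread within WT covered nearly the whole range of the mutants. The carrier Slc25a20 was at 41.5 to 48.6 CPM and the brain form Cpt1c at 30.4 to 37.4 CPM over all mice, and neither was called.

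Cpt1b, the muscle form of the carnitine palmitoyltransferase, was at 0.272 to 0.919 CPM, from 3 to 17 counts per library, in tissue whose muscle markers summed to at least 3894 CPM in every mouse. GENCODE lays the read-through gene Gm44502 over 81.4% of its exonic bases on the same strand, and Gm44502 was listed at 0 in every library. The low count of Cpt1b is therefore no measure of its expression here.

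Crat, the carnitine acetyltransferase that buffers acetyl-CoA in mitochondria, lies at chr2:30400471-30415813 (GRCm38, minus strand, ENSMUSG00000026853). It was at 79.2, 67.2, 68.7 and 89.5 CPM in WT, 53.5 to 72.3 CPM (median 60.1) in FUN025/+ and 58.9, 65.6, 69.2, 62.0 and 59.8 CPM in FUN025/FUN025 mice. The mutants overlapped with the 2 lower WT mice. Crat fell by 0.32 (SE 0.08, adjusted p = 0.0168) in FUN025/+ and by 0.27 (SE 0.09, adjusted p = 0.0468) in FUN025/FUN025 mice on the log2 scale. Without WT replicate 4, the highest, the values were -0.23 (adjusted p = 0.0927) and -0.18 (adjusted p = 0.205). The call in FUN025/FUN025 mice was lost in 10 of the 15 fits that left out 1 mouse, and both calls were lost with the replicate block (adjusted p = 0.0501 and 0.0756).

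Among the 9 acyl-CoA dehydrogenases, which differ in the chain they accept, Acadvl fell slightly and Acad9 and Acad10 rose slightly. Acadvl acts on very long chains at the inner membrane (chr11:70010183-70015411, GRCm38, minus strand, ENSMUSG00000018574). It was at 165, 153, 162 and 172 CPM in WT, 140 to 154 CPM (median 150) in FUN025/+ and 139, 147, 149, 150.5 and 155 CPM in FUN025/FUN025 mice. WT replicate 2 lay among the mutants. It fell by 0.14 on the log2 scale in FUN025/+ (SE 0.05, adjusted p = 0.046), and the value in FUN025/FUN025 mice was the same size, -0.14 (SE 0.05, adjusted p = 0.0566), and not called. In FUN025/FUN025 mice Acadvl was called by the DESeq2 Wald test and by edgeR without WT replicate 2. The call in FUN025/+ was lost in 10 of the 15 fits that left out 1 mouse (adjusted p up to 0.195) and with the replicate block (adjusted p = 0.053). Dvl2 lies over 42.9% of the exonic bases of Acadvl on the opposite strand and was at 108 to 130 CPM, and no source used here states a strand setting.

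Acad9 is a dehydrogenase better known as an assembly factor of respiratory complex I (chr3:36065979-36092853, GRCm38, plus strand, ENSMUSG00000027710). It was at 28.9, 27.2, 29.6 and 25.5 CPM in WT, 29.8 to 34.6 CPM (median 31.9) in FUN025/+ and 31.7, 33.9, 32.9, 32.2 and 33.4 CPM in FUN025/FUN025 mice. Each mutant mouse was above each WT mouse. The gap was narrow, with 29.75 CPM in FUN025/+ replicate 2 and 29.63 CPM in WT replicate 3. Acad9 rose by 0.20 (SE 0.06, adjusted p = 0.0293) in FUN025/+ and by 0.24 (SE 0.06, adjusted p = 0.0133) in FUN025/FUN025 mice on the log2 scale. The call in FUN025/+ was lost without WT replicate 2 or 4 or FUN025/+ replicate 3 or 6 (adjusted p up to 0.0968) and with the replicate block (adjusted p = 0.0672). Acad9 shares 20.6% of its transcript sequence with other genes, and Gm43079 lies over 6.82% of its exonic bases on the same strand.

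Acad10 (chr5:121621026-121660514, GRCm38, minus strand, ENSMUSG00000029456) was at 29.3, 24.5, 24.6 and 23.6 CPM in WT, 25.0 to 30.2 CPM (median 27.9) in FUN025/+ and 29.5, 33.3, 30.1, 28.4 and 29.0 CPM in FUN025/FUN025 mice. WT replicate 1 stood apart from the other WT mice and within the mutants. Acad10 rose by 0.24 in FUN025/FUN025 mice (SE 0.07, adjusted p = 0.0406) and was at 0.14 in FUN025/+ (adjusted p = 0.208), both on the log2 scale. The call was lost in 7 of the 15 fits that left out 1 mouse, those without WT replicate 2, 3 or 4 or FUN025/FUN025 replicate 1, 2, 3 or 5 (adjusted p up to 0.123), and with the replicate block (adjusted p = 0.0715). Without WT replicate 1 Acad10 was called in FUN025/+ mice as well. It shares 24.2% of its transcript sequence with other genes, chiefly its neighbour Acad12, so reads may have been split between them. Acad12 had log2 fold changes of -0.02 and -0.08 and was not called.

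Acadm, the medium-chain dehydrogenase, was at 93.6, 92.8, 99.7 and 97.1 CPM in WT, 89.7 to 106 CPM (median 96.0) in FUN025/+ and 100.4, 91.6, 104, 99.7 and 102 CPM in FUN025/FUN025 mice. These values overlapped, and the 95% intervals of its log2 fold change were -0.09 to 0.12 and -0.05 to 0.16. The other dehydrogenases, the long-chain Acadl, the short-chain Acads, the branched short-chain Acadsb and Acad11, were not called either, with log2 fold changes of -0.06 to 0.14 in the mutants. Acadsb was the nearest to a call, at 0.14 in FUN025/+ (adjusted p = 0.0634) and 0.13 in FUN025/FUN025 mice (adjusted p = 0.108). In FUN025/+ it was called with upper-quartile scaling, by the DESeq2 Wald test and without WT replicate 1 or FUN025/+ replicate 6.

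None of the 6 genes of the trifunctional protein and the later steps of the spiral was called against WT. Hadha and Hadhb code for the subunits of the trifunctional protein, which carries out the last 3 steps for long chains. Hadha was at 231, 223, 235 and 223 CPM in WT, 210.5 to 223 CPM (median 218) in FUN025/+ and 221, 220.3, 224, 225 and 232 CPM in FUN025/FUN025 mice. Hadhb was at 119, 115, 111 and 114 CPM in WT, 106 to 130 CPM (median 110.5) in FUN025/+ and 109, 108, 117, 112 and 111 CPM in FUN025/FUN025 mice. Both genes overlapped between genotypes, with log2 fold changes of -0.07 and -0.02 for Hadha and -0.02 and -0.04 for Hadhb in FUN025/+ and FUN025/FUN025 mice.

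The intervals were narrow, with 95% bounds for FUN025/FUN025 against WT of -0.10 to 0.06 and -0.16 to 0.07. Hadh and Echs1, the dehydrogenase and the hydratase for shorter chains, had log2 fold changes between -0.03 and 0.07. Acat1, which makes and splits acetoacetyl-CoA, was at 0.14 in FUN025/+ (adjusted p = 0.105) and 0.13 in FUN025/FUN025 mice (adjusted p = 0.147). With the muscle markers as a covariate Acat1 was called in both mutant genotypes.

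Acaa2 had the lowest p of the 34 genes between the mutant genotypes. It was at 123, 112, 132 and 121 CPM in WT, 112 to 126 CPM (median 119.6) in FUN025/+ and 132, 136, 141, 131 and 136 CPM in FUN025/FUN025 mice. All FUN025/FUN025 mice lay above all FUN025/+ mice, while WT replicate 3 lay among the FUN025/FUN025 mice. The log2 difference between FUN025/FUN025 and FUN025/+ was 0.18 (95% interval 0.08 to 0.27, adjusted p = 0.126), and that against WT was 0.15 (adjusted p = 0.0598). Neither was called in the edgeR fit with TMM scaling and all mice. The DESeq2 Wald test called both, and the difference against WT was also called with upper-quartile scaling, with the muscle covariate and without WT replicate 3. The auxiliary enzymes for unsaturated chains, Eci1, Eci2 and Decr1, had log2 fold changes of -0.09 to 0.04 against WT and were not called.

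None of the 3 ketone and acetate genes was called. Oxct1 was at 276, 307, 285 and 297 CPM in WT, 246 to 316 CPM (median 283) in FUN025/+ and 279, 293, 295, 310 and 284 CPM in FUN025/FUN025 mice, with 95% intervals of the log2 fold change of -0.16 to 0.10 and -0.13 to 0.14. Bdh1, which interconverts the main ketone bodies, was at 14.4, 15.1, 13.99 and 17.8 CPM in WT, 13.5 to 19.6 CPM (median 14.9) in FUN025/+ and 16.5, 18.4, 17.7, 18.4 and 18.7 CPM in FUN025/FUN025 mice. Of the FUN025/FUN025 mice, 3 lay above the highest WT mouse and the others within the WT range, and the log2 fold change was 0.23 (95% interval 0.01 to 0.44, adjusted p = 0.145). Acss1, which activates acetate in mitochondria, was at 16.3 to 23.2 CPM over all mice and was not called.

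Of the called genes, Crat, Acadvl, Pdk4 and Ucp3 are known to be abundant in striated muscle, whose markers were lower in most mutant mice, so their levels are set beside those markers. In the 4 WT mice Crat and Acadvl followed the order of the muscle markers, highest in replicate 4 and lowest in replicate 2. Pdk4 had the reverse order in the same mice, and Ucp3, highest in replicate 2, had neither order. With the mean log2 level of the muscle markers as a covariate, the log2 fold change of Crat was -0.12 in FUN025/+ (adjusted p = 0.45) and -0.09 in FUN025/FUN025 mice (adjusted p = 0.506), and that of Acadvl in FUN025/+ was -0.06 (adjusted p = 0.542), none of them called.

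Pdk4 kept its call in that fit, at -0.93 in FUN025/+ (adjusted p = 0.00685) and -0.65 in FUN025/FUN025 mice (adjusted p = 0.0264), and so did Etfb, at -0.86 (adjusted p = 0.0082) and -0.96 (adjusted p = 0.0014). Ucp3 was at -0.65 in FUN025/FUN025 (adjusted p = 0.0202) and at -0.59 in FUN025/+ mice (adjusted p = 0.0502), the latter not called. Acad9 lost its call in both genotypes, at 0.16 (adjusted p = 0.213) and 0.21 (adjusted p = 0.0792), and so did Acad10 in FUN025/FUN025 mice, at 0.27 (adjusted p = 0.0715). FUN025/+ replicates 5 and 6 held 9838 and 8785 CPM of muscle markers, within the WT range, and had 30.6 and 17.9 CPM of Pdk4, 6.78 and 6.92 CPM of Etfb and 11.3 and 9.07 CPM of Ucp3, below every WT mouse for each gene. Crat in the same mice was at 72.3 and 57.6 CPM, the first within the WT range. Their rod markers summed to 192.3 and 189.5 CPM, below every WT mouse.

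With the rod markers added to the muscle markers, the fit called 1.36% of all genes in FUN025/+ and 3.43% in FUN025/FUN025 mice. None of the 34 genes was called in FUN025/+, and Etfb (-1.14, adjusted p = 0.0151) and Acat1 were called in FUN025/FUN025 mice. The fold changes of Pdk4, Ucp3 and Etfb in that fit were larger than without covariates. Pdk4 was at -1.07 (adjusted p = 0.0919) and -0.77 (adjusted p = 0.132), Ucp3 at -0.77 (adjusted p = 0.187) and -0.81 (adjusted p = 0.0872), and Etfb in FUN025/+ at -1.06 (adjusted p = 0.0616). Acadvl in FUN025/+ was at -0.15 (adjusted p = 0.393), near its value without covariates. Crat was at -0.03 (adjusted p = 0.941) in FUN025/+ and -0.02 (adjusted p = 0.949) in FUN025/FUN025 mice. The part of muscle, rod, endothelial, smooth muscle, RPE and macrophage RNA in these results beyond these fits was not tested. Adipocyte markers, which could bring in Angptl4 and Pdk4, summed to 88.9 to 130 CPM in WT, 65.6 to 108 CPM in FUN025/+ and 80.0 to 93.7 CPM in FUN025/FUN025 mice, with 1 of the 8 tested markers called lower in FUN025/+ and none called in FUN025/FUN025 mice. All 8 had negative log2 fold changes in FUN025/+ (median -0.89) and 7 of 8 in FUN025/FUN025 mice (median -0.31), and their part in the values of Pdk4 and Angptl4 was not tested.

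**Figure D4:**
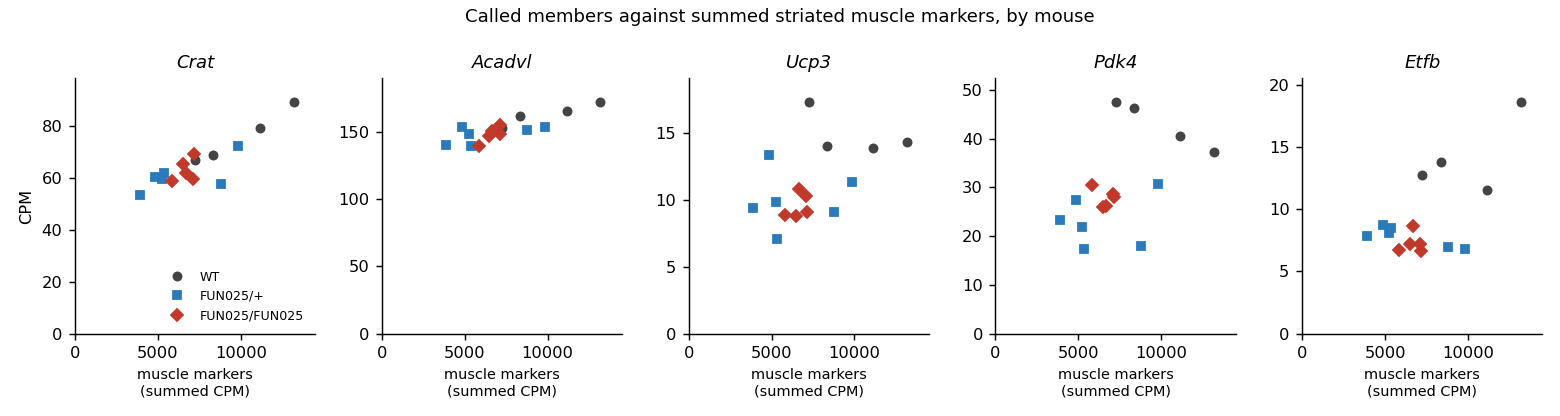
CPM of 5 called genes (vertical axes from 0) against the summed CPM of 20 striated muscle markers (horizontal axes) in each WT (circles), FUN025/+ (squares) and FUN025/FUN025 (diamonds) mouse. Crat is highest in the WT mice with the most muscle markers. Pdk4, Etfb and Ucp3 are lower in each mutant mouse than in each WT mouse.

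Genes that act beside the pathway were read from 6 lists with 86 genes, all of them tested. In FUN025/+ mice 8 rose and 6 fell, and in FUN025/FUN025 mice 9 rose and 3 fell. Over all genes 7.09% rose and 6.61% fell in FUN025/+ and 7.03% rose and 7.02% fell in FUN025/FUN025 mice, so the counts were near the background and the named genes are given as single calls. Of 13 regulators of fatty acid oxidation, 2 rose in both mutant genotypes. Nrip1, a corepressor of oxidative genes, rose by 0.23 (adjusted p = 0.00807) in FUN025/+ and 0.43 (adjusted p = 5.51e-05) in FUN025/FUN025 mice on the log2 scale. Prkaa1, a catalytic subunit of AMP-activated kinase, rose by 0.22 (adjusted p = 0.00791) and 0.20 (adjusted p = 0.0187). Ppard, the PPAR form that drives oxidation in muscle, fell in FUN025/+ mice by 0.27 (adjusted p = 0.0138).

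Among 13 genes of fatty acid uptake and activation, 3 rose and 1 fell in FUN025/FUN025 mice and 2 fell in FUN025/+ mice. The acyl-CoA synthetases Acsl1, Acsl3 and Acsl4, which attach fatty acids to coenzyme A, rose by 0.36, 0.32 and 0.34 on the log2 scale in FUN025/FUN025 mice (adjusted p = 0.00437, 0.00108 and 6.42e-04). Acsl3 was also higher in FUN025/FUN025 than in FUN025/+ mice, by 0.36 (SE 0.05, adjusted p = 7.45e-04), and was the only gene of the 6 lists called between the mutant genotypes. Pnpla2, the triglyceride lipase that supplies fatty acids from lipid droplets, fell by 0.20 and 0.27 in FUN025/+ and FUN025/FUN025 mice (adjusted p = 0.0263 and 0.00646). Fabp4, a fatty acid carrier of adipocytes and capillary endothelium, fell by 0.97 in FUN025/+ mice (SE 0.24, adjusted p = 0.0166).

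The 18 other mitochondrial acyl-CoA enzymes had 3 rises and 1 fall in FUN025/+ and 1 rise and 1 fall in FUN025/FUN025 mice. Mcat, of mitochondrial fatty acid synthesis, rose by 0.41 and 0.33 (adjusted p = 0.00167 and 0.0101), and Bdh2, a cytosolic short-chain dehydrogenase, fell by 0.28 in each genotype (adjusted p = 0.00175 and 0.00228). Mut and Pcca, of propionyl-CoA use, rose in FUN025/+ by 0.19 and 0.15. Of 17 peroxisomal beta-oxidation genes 3 rose in FUN025/+ and 2 in FUN025/FUN025 mice, and none fell. Crot, which makes carnitine esters of the shortened chains, rose by 0.22 and 0.19, Abcd3, a peroxisomal fatty acid transporter, by 0.17 and 0.21, and Scp2, a thiolase and sterol carrier, by 0.19 in FUN025/+ (adjusted p = 0.0432), without a call in FUN025/FUN025 mice.

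Beside Pdk2 and Pdk4, 8 other genes control pyruvate dehydrogenase, and Pdp2, a phosphatase that reactivates it, rose by 0.40 in FUN025/FUN025 mice (SE 0.09, adjusted p = 0.00768) while none of the others was called. Of 17 tricarboxylic acid cycle genes, Sdhb fell by 0.29 and 0.25 in FUN025/+ and FUN025/FUN025 mice (adjusted p = 0.0145 and 0.0351), Mdh2 fell by 0.24 in FUN025/+ (adjusted p = 0.0283), and none rose.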

How the data were processed

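RNA-seq libraries of 15 mice were compared by genotype, read from the sample labels. The authors deposited whole-number read counts per Ensembl gene, without normalization. Per the submitters' processing notes FastQC 0.11.8, Trimmomatic 0.39, HISAT2 2.1.0, SAMtools, featureCounts 2.0.0 and GRCm38 were used. The study's methods give poly(A) selection, NEBNext Ultra libraries and paired-end reads. The strand setting and the treatment of reads that fit several genes are not given in the sources used here. Gene names, positions and exonic lengths came from GENCODE M21, which holds 55240 of the 55421 listed genes.

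Following the study's methods, genes in the lowest 15% by variance were dropped and edgeR was used. Genes with low counts were removed with filterByExpr, which left 18979. TMM scaling, a robust quasi-likelihood fit over all 15 mice (edgeR 4.0.16) and Benjamini-Hochberg adjustment over all tested genes followed, with a threshold of 0.05. CPM values are TMM-scaled. The allele trend used limma 3.58.1 on log2 CPM with a prior count of 2 and an FDR of 0.01. The 95% intervals are for single genes and are not adjusted. TPM values used the exonic length of the gene models. Floors of 3 counts cover counting error only. R 4.3.3 and Python were used, with DESeq2 1.42.0 and limma-voom as alternatives. Where nothing says whether replicates differ in litter or batch, p-values measure the spread between these mice only. The main edgeR fit and the limma trend were first tested on simulated data with known changes in FUN025/FUN025 mice. The alternative fits were not tested in this way.

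Values by mouse (for the 6 FUN025/+ mice, the range and median) are given for each gene called in any comparison or in the trend and for Cpt1a, Cpt2, Acadvl, Acadm, Hadha, Hadhb, Etfdh, Oxct1, Bdh1, Pdk4, Angptl4 and Ucp2. Acaa2 and, with the FUN025/+ range alone, Etfa were given likewise after their values were seen. Of the neighbouring lists, called genes are named, at most 4 a list by the size of the change in FUN025/FUN025 mice. Pnpla2, beyond that limit, was named after its values were seen. The genes, the lists and the markers were chosen with earlier results of these data known.

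Alternatives were other scalings (DESeq2 size factors, upper quartile), other tests (DESeq2, limma-voom), other filters on low counts and variance, fits of only the genotypes compared, counts thinned to the smallest library, the replicate number as a block, muscle and rod markers as covariates, an edgeR linear term, another prior count or FDR for the trend, and leaving out each mouse in turn.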

Additional observations from a re-analysis of the deposited data

Results flagged for a closer look

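In 105 groups (35 genes in 3 genotypes) a mouse whose gap to the nearest of its group exceeded Dixon's 95% limit was found 13 times, where chance flags about 1 in 20 groups. In WT these were Acad10 (29.3 CPM in replicate 1, others 23.6 to 24.6), Acat1 (145 CPM in replicate 1, others 133 to 135), Angptl4 (28.4 CPM in replicate 1, others 35.2 to 35.6), Etfa (77.8 CPM in replicate 2, others 88.7 to 90.5), Ucp3 (17.3 CPM in replicate 2, others 13.8 to 14.3) and Acad12 (19.2 CPM in replicate 4, others 15.7 to 16.2). In FUN025/+ they were Etfa (81.0 CPM in replicate 1, others 86.8 to 89.9), Hadhb (130 CPM in replicate 5, others 106 to 113) and Etfdh (80.6 CPM in replicate 5, others 62.4 to 67.4). In FUN025/FUN025 they were Echs1 (84.4 CPM in replicate 3, others 87.5 to 88.5), Etfb (8.63 CPM in replicate 4, others 6.67 to 7.24), Acss1 (23.2 CPM in replicate 4, others 16.9 to 18.4) and Etfa (88.9 CPM in replicate 5, others 77.9 to 79.1). Etfa was flagged in all 3 genotypes.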

How the results depend on the processing

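The falls of Pdk4, Etfb and Ucp3 in both mutant genotypes kept their direction and call under every change of scaling, test, filter, depth and replicate block. They also kept both when any mouse was left out. With the muscle covariate Ucp3 lost its call in FUN025/+ mice. With muscle and rod covariates together, all of these calls were lost except that of Etfb in FUN025/FUN025 mice. Between FUN025/+ and WT 6 genes were called, and 3 with the replicate block (Etfb, Pdk4, Ucp3; 10.6% of all genes were called in that fit), 3 with the muscle covariate (6.64% of all genes), 0 with the muscle and rod covariates (1.36%), and 3 to 7 when a mouse was left out, 3 of them without WT replicate 4 and 5 without WT replicate 2, the library with most rod RNA. Between FUN025/FUN025 and WT 6 were called, 2 with the muscle and rod covariates (3.43% of all genes), and 4 to 6 when a mouse was left out. Between the mutant genotypes 0 were called, 1 by the DESeq2 Wald test, and 0 with any mouse left out. For the trend over mutant alleles 1 gene was called, 3 at an FDR of 0.05 (Acad9, Etfb, Ucp3), 0 with the replicate block, and 0 to 2 when a mouse was left out, 0 without WT replicate 1, 2, 3 or 4 and 2 without FUN025/+ replicate 4. Etfb in the trend was then at -0.49 to -0.36 per allele. No called gene reversed in sign. Same-numbered mice are different animals and their deviations correlated at -0.39 to 0.13, so the replicate block is not a paired design. Upper-quartile scaling moved the median of all genes by under 0.1 on the log2 scale. The smaller calls were less steady when a mouse was left out, with 10 of 15 fits losing Acadvl, 4 losing Acad9 and 1 losing Crat in FUN025/+, and 10 losing Crat, 7 losing Acad10 and 0 losing Acad9 in FUN025/FUN025 mice. Of the 12 other settings, 8 lost Acadvl, 5 lost Acad9 and 3 lost Crat in FUN025/+, and 7 lost Crat, 5 lost Acad10 and 2 lost Acad9 in FUN025/FUN025 mice. Without the low-count filter 4 and 5 genes were called in FUN025/+ and FUN025/FUN025 mice, with only the compared genotypes 4 and 4, and with the DESeq2 Wald test 8 and 8. Thinned to 10903183 counts per library, 5 genes were called against WT in each mutant genotype, beside 12.2% and 12.4% of all genes. Counts per library were lowest for Cpt1b (3 to 17), Etfb (72 to 335) and Ucp3 (81 to 322), and low counts limit precision.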
